A study of Macaca fascicularis with 6 samples.

Results

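The nuclear-encoded subunits of oxidative phosphorylation were examined in the liver of cynomolgus macaques (Macaca fascicularis) that had received vehicle or an LXR ligand, LXR being the liver X receptor, a nuclear receptor that senses oxysterols. Members were the genes whose symbol names a subunit of respiratory complexes I to IV, cytochrome c or the mitochondrial ATP synthase, each read by its brightest probe set with a single symbol. This gave 78 genes of the 19775 genes with such a probe set, of which 33 belonged to complex I, 3 to complex II, 7 to complex III and 17 each to complex IV and ATP synthase, with CYCS, cytochrome c, as the remaining gene. The symbol prefixes also matched 5 antisense or divergent transcripts and pseudogenes, which name no subunit and were kept apart. The study placed RNA from 3 vehicle animals (title Liv_Veh) and 3 ligand animals (title Liv_GW, treatment label LXR) on 6 Affymetrix arrays, 1 animal on each. The name of the ligand, its dose, the duration of treatment and the age of the animals are not given in the sources used here.

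Oxidative phosphorylation is the last stage of respiration in the inner mitochondrial membrane. Complexes I and II pass electrons from NADH and succinate to ubiquinone, complex III passes them on to cytochrome c, and complex IV hands them to oxygen. Complexes I, III and IV pump protons as they do so, and ATP synthase lets the protons flow back to make ATP. Most subunits are encoded in the nucleus and the rest in mitochondrial DNA, and hepatocytes are rich in mitochondria, which also oxidise fatty acids there.

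The array design holds 54675 probe sets made for human transcripts, and signals are MAS5 intensities in arbitrary units, so levels of different genes cannot be set against each other. Median signals of the arrays lay between 111 and 139, and the correlation between arrays over tested probe sets lay between 0.900 and 0.922. Ligand array 1 stood apart on the first principal component, at -89.8 against 0.632 to 36.8 for the other 5 arrays. Ligand array 3 had the highest ratio of 3' to 5' signal for both control transcripts, a sign of shorter RNA, with a log2 ratio of 2.05 for GAPDH against 0.991 to 1.70 on the other arrays. For ACTB the other 5 arrays lay between 2.15 and 3.06, with ligand array 3 above them. Vehicle array 1 had a signal of 11085 for HBB, an erythroid marker, against 600 to 1255 on the other 5 arrays. The other erythroid markers with a probe set were not high there, with AHSP at 134 against 138 to 426 elsewhere. SLC4A1 had 108 against 49.0 to 289, and ALAS2, a dim probe set, 35.9 against 51.0 to 104. All 11 hepatocyte markers examined were measured, and their summed signal ran from 936395 to 1068750 with vehicle and from 1009800 to 1080770 with the ligand. In bulk tissue, fewer cells of a type and less RNA per cell cannot be told apart.

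The comparison asked whether subunit transcripts differ between ligand and vehicle animals. None of the subunits passed the test, and most lay close to equality. Of the 78 genes, 75 were bright enough to be tested, meaning a mean signal over the 6 arrays of at least 129. Of these 75, 43 had a higher and 32 a lower mean log2 signal with the ligand, and the median log2 difference was 0.027, against 0.0032 over all 27304 tested probe sets and 0.0027 over all 13349 tested genes. Higher means were found for 57.3% of the subunits, against 50.3% of all tested genes. The subunit differences ran from -0.68 for ATP5MC2 to 0.70 for COX7A1, with quartiles at -0.086 and 0.14. The balance of signs rested on single arrays, with 29 higher and 46 lower without ligand array 2, 30 and 45 without vehicle array 2, and 54 and 21 without vehicle array 1.

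In limma's moderated test 0 of the 75 subunits passed at an adjusted p of 0.05, as did 0% of all tested probe sets, and the lowest limma adjusted p among the subunits was 0.825. An unadjusted p under 0.05 was reached by 2 subunits (2.67%), ATP5MC2 and COX7A1, against 5.58% of all tested probe sets (3.24% higher and 2.33% lower with the ligand) and 6.12% of all tested genes. The 3 ligand arrays lay entirely above the 3 vehicle arrays for 5 subunits and entirely below for 1, together 8.0%, against 11% of all tested probe sets (5.99% above and 4.96% below) and 11.4% of all tested genes. Both shares were below the background of the array, so they are no result about the subunits.

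A p that misses the threshold does not show equal expression, and the 95% intervals of the differences say how large a change the data still allow. The interval lay inside log2 differences of -1 and 1 for 69 of the 75 subunits (92.0%), against 44.7% of all tested probe sets and 52.5% of all tested genes. Bright probe sets are measured more tightly, and among the 2680 tested genes with mean signals between 1776 and 10214, the interquartile range of the subunits, the share was 83.3%. Those genes were dimmer than the subunits, with a median mean signal of 3217 against 5751, so the match in brightness is partial. The median standard error was 0.22 for the subunits and 0.23 for those 2680 genes. The median size of the difference, regardless of sign, was 0.12 for the subunits and 0.17 for those genes. The 6 subunits whose interval reached beyond -1 or 1 were ATP5MC2, ATP5MJ, COX6A2, COX6B2, COX7A1 and UQCRQ.

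**Figure D1:**
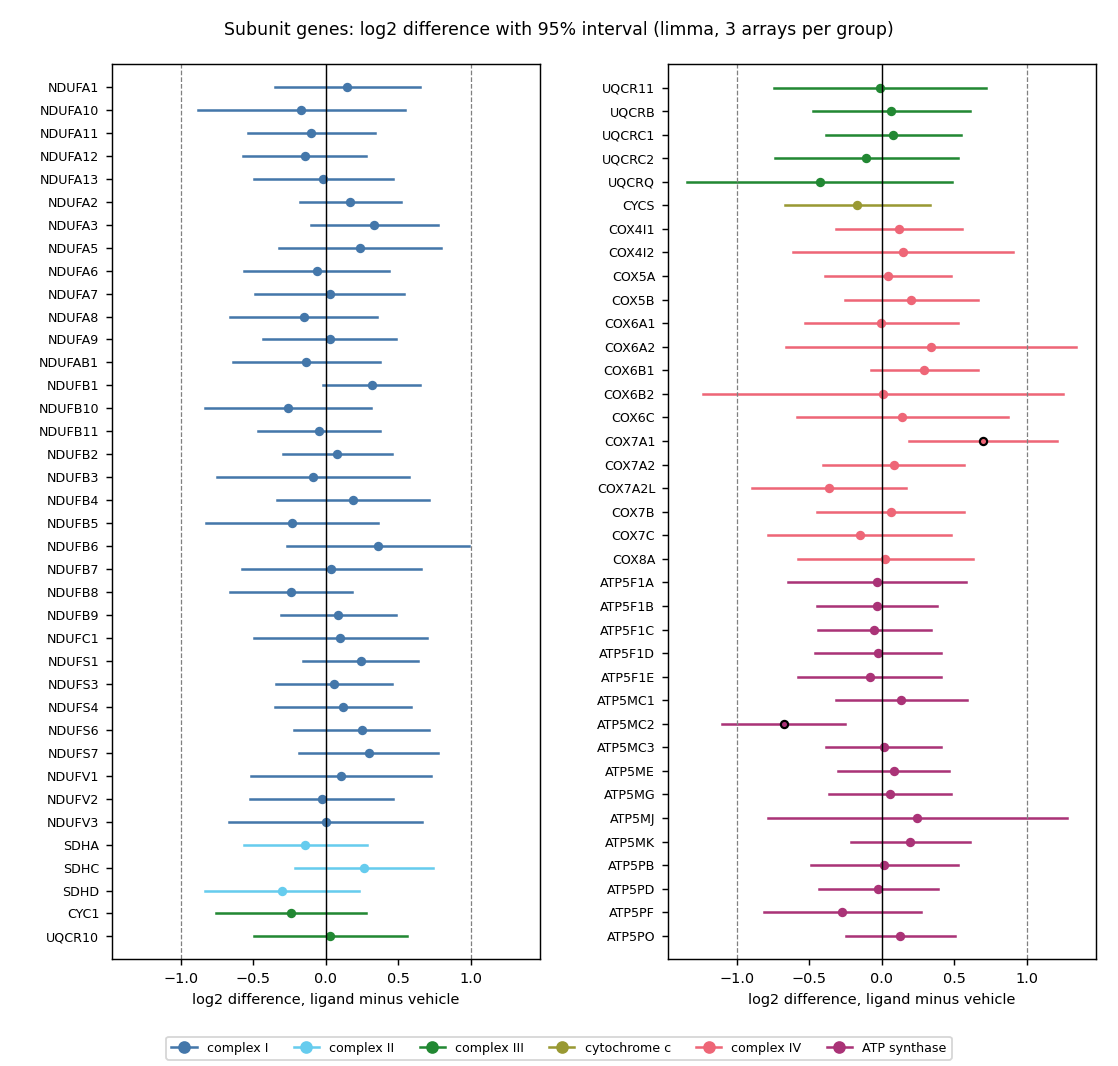
Log2 difference between ligand and vehicle (points) with its 95% interval (lines) for each of the 75 tested subunit genes, coloured by complex, with dashed lines at -1 and 1. Points ringed in black, ATP5MC2 and COX7A1, had an unadjusted p under 0.05, and 69 of the 75 intervals stay between the dashed lines.

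Complex I, the NADH dehydrogenase that feeds most electrons into the chain, held the most members. All 33 of its genes were tested, 19 were higher and 14 lower with the ligand, and the median log2 difference was 0.036, or -0.042 without ligand array 2 and 0.14 without ligand array 3. None had an unadjusted p under 0.05, and all 33 intervals stayed inside -1 and 1. Differences ran from -0.26 for NDUFB10 to 0.36 for NDUFB6, an accessory subunit of the membrane arm, and the latter's interval was -0.27 to 0.99. A dimmer NDUFB10 probe set had 0.29 ± 0.30 (SE), so that gene's place as the lowest rests on the choice of probe set.

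The core of complex I holds the flavin and the iron-sulphur clusters that carry the electrons. Of its 5 tested subunits 4 were higher and 1 lower, with a median log2 difference of 0.10, against 0.027 for the 28 accessory subunits. NDUFS1, the large iron-sulphur subunit, had signals of 8327, 6652 and 7135 with vehicle and 9660, 8466 and 7957 with the ligand. The 2 groups overlapped, and its log2 difference of 0.24 ± 0.18 (SE) had a limma adjusted p of 0.913. NDUFS7, which carries the last cluster before ubiquinone, had a log2 difference of 0.30 ± 0.22 (SE), with ligand array 3 inside the vehicle range. NDUFV1, the flavin-binding subunit, ran from 6642 to 12120 with vehicle and from 6402 to 11264 with the ligand, so its spread among animals far exceeded its log2 difference of 0.10. NDUFV2, its partner, had a log2 difference of -0.029 ± 0.22 (SE).

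Accessory subunits brace the core and are needed for its assembly, and 3 of the 28 had groups that did not overlap. That is 10.7%, close to the 11.4% of all tested genes, so the values that follow are given as a description. NDUFB1, a small subunit of the membrane arm, had signals of 36237, 43086 and 43389 with vehicle and 51718, 50847 and 49698 with the ligand. Its 3 ligand values lay close together and above all vehicle values, and its log2 difference was 0.32 ± 0.15 (SE), at limma adjusted p = 0.880. NDUFA3, another small membrane subunit, had signals of 2468, 2523 and 2148 against 2946, 3428 and 2669. Its log2 difference was 0.33 ± 0.20 (SE), and the ligand values lay above the vehicle values. NDUFS6, a zinc-binding accessory subunit, was the third, and was named after its values were seen, with a log2 difference of 0.25.

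Complex II, succinate dehydrogenase, links the citric acid cycle to the chain, and its 3 tested genes went both ways. SDHA, the flavoprotein that oxidises succinate, had signals of 10825, 11201 and 8478 with vehicle and 10635, 8942 and 8077 with the ligand, 2 overlapping groups with a log2 difference of -0.14 ± 0.19 (SE). SDHC and SDHD form the membrane anchor that binds ubiquinone, and their log2 differences were opposite in sign, 0.26 ± 0.21 and -0.30 ± 0.24 (SE). SDHC was read by 5 tested probe sets, of which 3 were higher and 2 lower.

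In complex III, the cytochrome bc1 complex, 3 of 7 genes were higher and 4 lower, with a median log2 difference of -0.011, or -0.17 without ligand array 2 and 0.078 without vehicle array 1. UQCRQ, a small subunit of the complex, varied most between animals, with signals of 2361, 808 and 1407 with vehicle and 663, 1600 and 1024 with the ligand. The values were scattered in both groups, and its log2 difference of -0.43 ± 0.41 (SE) had an interval from -1.34 to 0.48. Without vehicle array 1 that difference was -0.051. CYC1, the cytochrome c1 that passes electrons to cytochrome c, had a log2 difference of -0.24 ± 0.23 (SE), and the core proteins UQCRC1 and UQCRC2 had 0.080 ± 0.21 and -0.11 ± 0.28 (SE). CYCS, the mobile carrier itself, had signals of 3670, 2800 and 3402 with vehicle and 2400, 3766 and 2722 with the ligand, a log2 difference of -0.17 ± 0.23 (SE).

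Complex IV, cytochrome c oxidase, leaned towards higher signals, with 12 of 15 tested genes higher and 3 lower and a median log2 difference of 0.080. That median was -0.019 without vehicle array 2, -0.073 without ligand array 2 and 0.20 without ligand array 1. COX4I1 and COX5A, which bind the catalytic core early in assembly, had log2 differences of 0.12 ± 0.20 and 0.042 ± 0.19 (SE). COX5B, a zinc-binding subunit, had a log2 difference of 0.20 ± 0.21 (SE). COX6B1, which lies on the outer face where the monomers of the dimer meet, had tight vehicle signals of 9700, 9768 and 9403, below the ligand signals of 13171, 10498 and 11865. Its log2 difference was 0.29 ± 0.17 (SE), at limma adjusted p = 0.890. COX7A2L, which carries a COX7 name and links complexes III and IV into supercomplexes, had the most negative difference of the group, -0.36 ± 0.24 (SE).

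The highest difference of all subunits belonged to COX7A1, the isoform typical of heart and skeletal muscle, which stands beside the widely expressed COX7A2. COX7A1 had signals of 1261, 917 and 1336 with vehicle and 2077, 1945 and 1656 with the ligand. Every ligand animal exceeded every vehicle animal, and the mean signals were 1171 ± 223 in vehicle and 1893 ± 215 in ligand animals (SD, n = 3 each). This is a 1.62-fold higher level on the log2(signal + 16) scale, a log2 difference of 0.70 ± 0.23 (SE) with an interval from 0.19 to 1.21, and it did not pass (limma adjusted p = 0.829). Without vehicle array 2 its difference was 0.53, and the unadjusted p was no longer under 0.05. COX7A2 had 9830, 7153 and 9298 against 7781, 11990 and 8282, overlapping groups with a log2 difference of 0.080 ± 0.22 (SE).

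COX7A1 rests on a single probe set. Markers of other cells were measured in the same animals, and their part in its difference was not tested. Of 7 muscle markers 6 had a probe set and 2, MB and DES, were bright enough to be tested. Both were lower with the ligand. DES passed the brightness threshold only through its vehicle values, with means of 214 with vehicle and 99.2 with the ligand. Of the markers too dim to be tested, ACTA1 and MYL2 had higher means with the ligand, and CKM and MYH7 lower ones. The summed signal of the 6 ran from 556 to 946 with vehicle and from 504 to 612 with the ligand. Of 10 stellate cell and fibroblast markers, all tested, 8 were higher, and their summed signal was 17220 to 26915 with vehicle and 32926 to 45897 with the ligand. The 9 tested macrophage markers, of 10 listed, were all higher, with sums of 11679 to 15619 against 20067 to 25421. Endothelial markers had sums of 10917 to 13252 against 11219 to 14387, with 8 of the 9 tested higher. The ninth, VWF, had 4667, 2129 and 1340 with vehicle and 157, 156 and 377 with the ligand, and without it the sums were 8585 to 10064 against 11062 to 14009. Such sums weigh bright probe sets most, and each compares only the same probe sets between animals.

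The other tissue isoforms of complex IV gave no such separation. COX4I2, the isoform associated with lung, had signals of 302, 315 and 198 with vehicle and 254, 257 and 397 with the ligand. COX6A2, the muscle partner of COX6A1, had 130, 166 and 176 against 142, 169 and 339, so that ligand array 3 alone was high. COX6B2, a testis isoform, had 245, 135 and 239 against 317, 328 and 73.1. Both groups overlapped for each of these 3 dim genes, whose standard errors were wide, 0.56 for COX6B2. The widely expressed COX6A1 had a log2 difference of -0.0045 ± 0.24 (SE), COX7B 0.061 ± 0.23 and COX8A 0.025 ± 0.27. COX8C and COX7B2, both testis isoforms, fell below the brightness threshold, at 2.79 to 145 and 8.52 to 86.6 over the 6 arrays. ATP5MF, the only other untested member, had signals of 24.0 to 214, below the threshold of 129 on average, while COX6A2 was the dimmest tested member with a mean of 187. ATP5MF rests on a single dim probe set. The symbols left out with the probe sets of several symbols included ATP5MF-PTCD1, so the level of ATP5MF in liver cannot be read from these signals.

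In ATP synthase 8 of the 16 tested genes were higher and 8 lower, with a median log2 difference of -0.0070, or -0.12 without ligand array 2 and 0.12 without ligand array 3. The catalytic F1 head lay close to equality. ATP5F1A and ATP5F1B, the alternating subunits that make ATP, had log2 differences of -0.033 ± 0.28 and -0.034 ± 0.19 (SE), and ATP5F1C, the rotating central shaft, -0.051 ± 0.18 (SE). All 5 head subunits lay between -0.084 and -0.025. The 4 subunits of the peripheral stalk, which holds the head still, had a median of -0.0044, with ATP5PF at -0.27 ± 0.24 and ATP5PO at 0.13 ± 0.17 (SE). All 4 tested members of the remaining membrane subunits were higher, by 0.056 to 0.24, among them ATP5MK at 0.20 ± 0.19 (SE).

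The c ring, the rotor that protons turn, held the lowest of all subunits. ATP5MC1, ATP5MC2 and ATP5MC3 encode the same mature subunit c behind different import sequences. ATP5MC2 had signals of 11403, 12145 and 9886 with vehicle and 7310, 8026 and 5697 with the ligand. All 3 ligand animals lay below all 3 vehicle animals, with means of 11144 ± 1152 and 7011 ± 1193 (SD, n = 3 each), 1.60-fold lower with the ligand. Its log2 difference of -0.68 ± 0.19 (SE), with an interval from -1.10 to -0.25, did not pass (limma adjusted p = 0.825). The difference stayed between -0.78 and -0.53 when any single array was left out.

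The other subunit c genes had overlapping groups. ATP5MC1 had 2548, 2389 and 2579 with vehicle and 3289, 2337 and 2704 with the ligand, a log2 difference of 0.13 ± 0.20 (SE). ATP5MC3 had 34308, 28450 and 31839 against 30937, 38308 and 26854, a log2 difference of 0.011 ± 0.18 (SE), whose sign turned under quantile normalization and median centring. The differences between the 3 genes were not themselves tested. A second ATP5MC2 probe set, too dim to be tested, had 52.5, 133 and 105 with vehicle and 27.1, 90.2 and 14.8 with the ligand. The probe set of ATP5MC2P1, a pseudogene copy of ATP5MC2, had 384, 421 and 317 against 290, 228 and 218, a log2 difference of -0.58 ± 0.30 (SE). It too had all ligand values below all vehicle values. Whether transcripts of the copy and the gene are read by each other's probes was not tested.

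**Figure D2:**
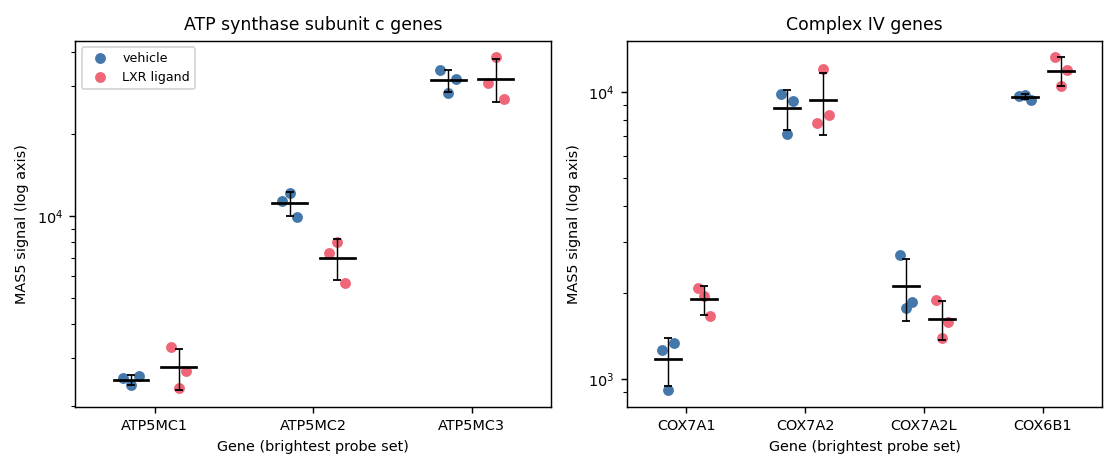
MAS5 signal on a log axis for the 3 subunit c genes of ATP synthase (left) and for COX7A1, COX7A2, COX7A2L and COX6B1 (right), with 1 point per animal, bars for the mean and whiskers for 1 SD (n = 3 per group). ATP5MC2 lies lower in all 3 ligand animals, and COX7A1 and COX6B1 lie higher.

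Other probe sets of the same genes were read as a check on the brightest ones. The 78 genes had 152 single-symbol probe sets, of which 118 were tested, 67 higher and 51 lower with the ligand, and 0 passed. Of the 27 genes with several tested probe sets, 16 had a single direction and 11 had probe sets of both signs. Of the 43 tested probe sets that were not the brightest of their gene, 4 (9.3%) had an unadjusted limma p under 0.05, and these were named after their values were seen. Over all 118 the share was 5.08%, near the 5.58% of all tested probe sets, so it is no result about the subunits. UQCRB, a subunit of complex III, had 2 such probe sets of opposite direction. One read 196, 232 and 213 with vehicle and 395, 299 and 421 with the ligand, and the other 1902, 1856 and 2037 against 1307, 1541 and 1403, while the brightest had a log2 difference of 0.064. The groups did not overlap on either of the 2, and their directions were opposite. The remaining 2 were a dim NDUFA11 probe set, at 1.29 ± 0.51 (SE), and a dim UQCR11 probe set, at -1.21 ± 0.50 (SE), while the brightest probe sets of these genes had -0.099 and -0.011. NDUFS1 also depended on this choice, since the mean of its probe sets gave -0.27 and the brightest 0.24. A dim further NDUFS7 probe set had -0.21 ± 0.97 (SE), against 0.30 for the brightest, and their mean gave 0.044. The other COX5B probe sets had -0.041, -0.00074 and 0.37, against 0.20 for the brightest.

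The spread of the subunits between animals exceeded their difference between treatments. For each array the median was taken over the 75 subunits of the deviation from the gene's own mean over the 6 arrays. Vehicle animals 1 to 3 had 0.078, -0.11 and -0.0095, and ligand animals 1 to 3 had 0.063, 0.24 and -0.19. The highest and the lowest animal were thus both in the ligand group, and the group means of -0.013 ± 0.094 and 0.038 ± 0.22 (SD, n = 3 per group) differed by less than their spread. The same order of ligand arrays 2 and 3 as highest and lowest held after quantile normalization, at 0.19 and -0.14, and after median centring, at 0.25 and -0.24. Complex IV departed from this on ligand array 3, where its median deviation was 0.045, while complex I had -0.14, complex III -0.22 and ATP synthase -0.22.

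Ligand array 2 held the highest of the 6 values for 35 of the 75 subunits, and ligand array 3 the lowest for 28. The median log2 gap between these 2 animals was 0.41, a 1.33-fold difference, with 61 of the 75 subunits (81.3%) higher in ligand animal 2. Over all 13349 tested genes the median gap was -0.022, with 48.5% higher in that animal. The choice of this pair was not made on all genes. Ligand arrays 2 and 3 were picked as highest and lowest for these same subunits, so a gap among the subunits was built in and is a description only. Leaving out these arrays moved the group difference accordingly, with a subunit median of -0.079 without ligand array 2 and 0.12 without ligand array 3. Without vehicle array 2 it was -0.037 and without vehicle array 1 0.090. Ligand array 3, lowest for the subunits, was also the array with the highest 3' to 5' ratios, and the part of RNA quality in its subunit level was not tested. Without ligand array 1, which stood apart on the first principal component, the median was 0.029.

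The subunits also varied together from animal to animal. After the group means were removed, the mean pairwise Pearson correlation over the 6 arrays was 0.21 among the 75 subunits. It was 0.0036 among all 13349 tested genes and 0.018 among the 2680 genes within the subunits' interquartile range of signal, which were dimmer. By complex it was 0.31 for complex III, 0.30 for ATP synthase, 0.20 for complex I and 0.055 for complex IV. All pairs share the same 6 animals and arrays, so these values are a description without a test. Their spread within a group, as the median SD of log2 values, was 0.19 with vehicle and 0.28 with the ligand, and it was larger with the ligand for 50 of the 75 subunits (66.7%), against 50.5% of all tested genes.

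**Figure D3:**
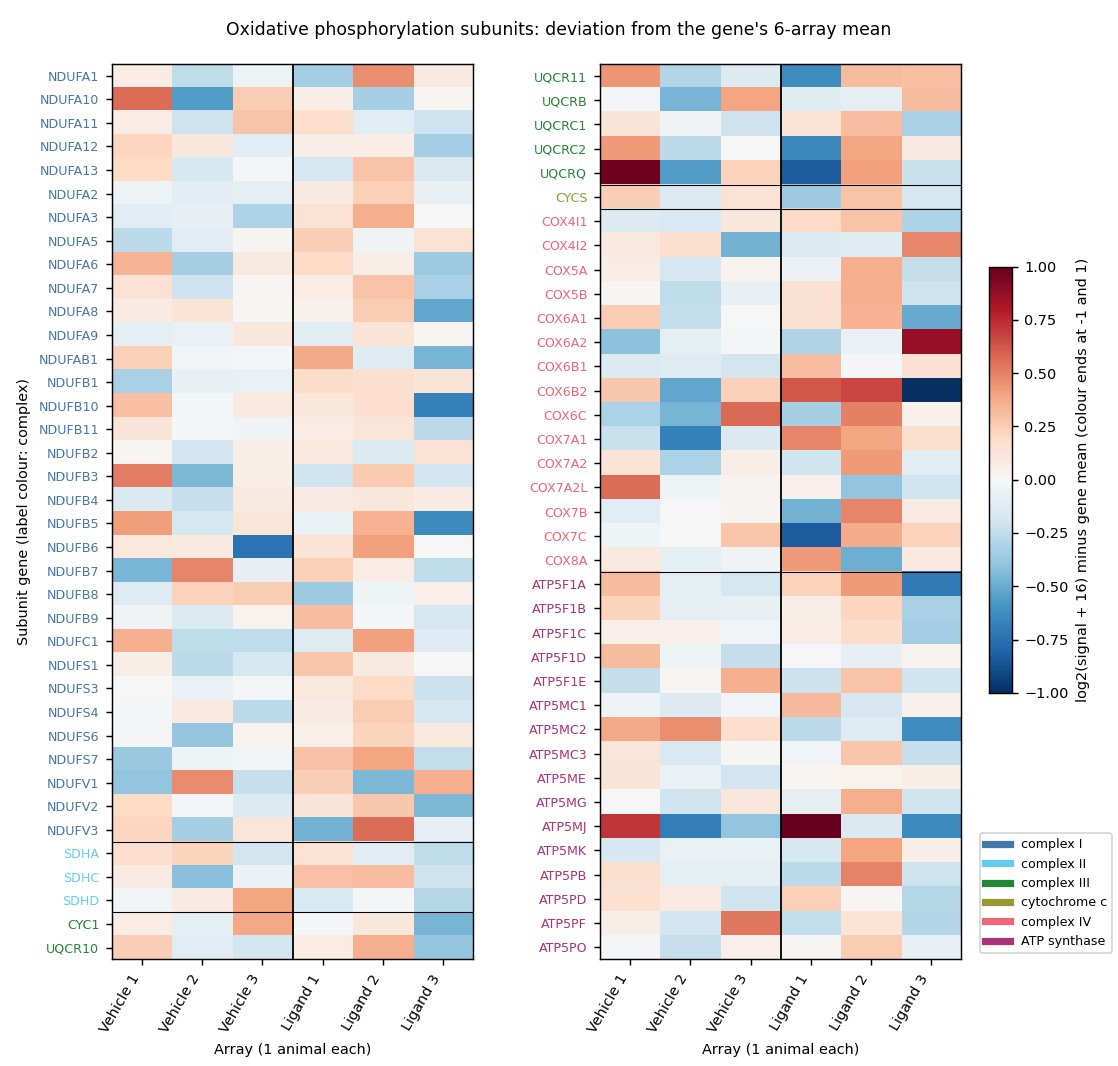
Deviation of log2(signal + 16) from each gene's mean over the 6 arrays, for the 75 tested subunits (rows, label colour by complex) on each array (columns, vehicle left of the line and ligand right). Red is above and blue below the gene's mean, and the column of ligand animal 2 is mostly red and that of ligand animal 3 mostly blue.

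**Figure D4:**
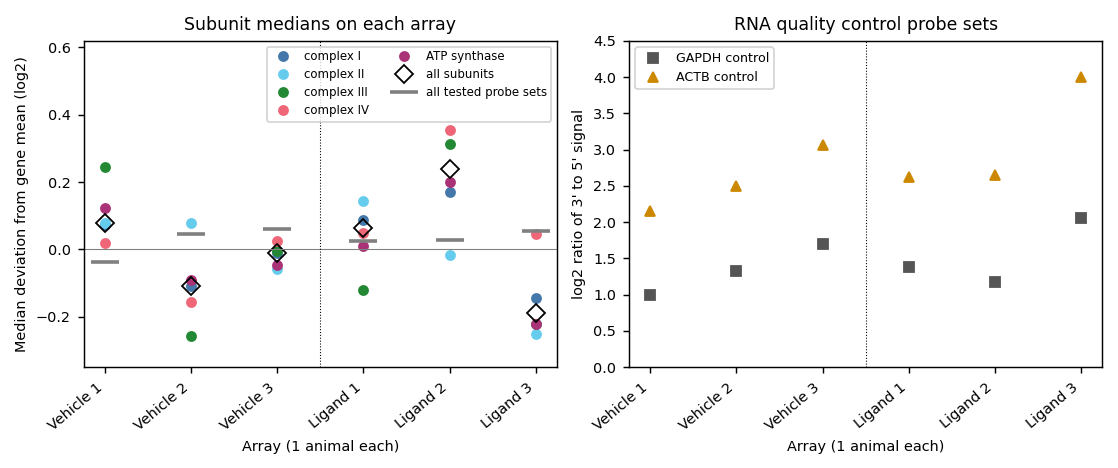
Left, the median deviation from the gene mean on each array for all subunits (open diamonds), for complexes I to IV and ATP synthase (coloured points) and for all tested probe sets (grey bars); right, the log2 ratio of 3' to 5' signal for the GAPDH and ACTB control probe sets. The subunit median is highest on ligand array 2, at 0.24, and lowest on ligand array 3, at -0.19, where both control ratios are highest.

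Building the complexes needs assembly factors, which insert cofactors and join subunits without staying in the finished complex. Of 14 tested complex I assembly factors 3 were higher and 11 lower, and the median log2 difference was -0.13, or -0.21 without ligand array 2. NDUFAF4, one of them, had signals of 338, 321 and 335 with vehicle and 146, 197 and 112 with the ligand, groups that did not overlap, and a log2 difference of -1.08 ± 0.36 (SE). The NDUFAF4 difference shrank to -0.59 in an alternative with all arrays kept. TIMMDC1, a membrane arm assembly factor, had -0.31 ± 0.18 (SE). Of 8 factors for complexes II and III, 3 were higher and 5 lower, with a median of -0.11, which was -0.0057 without ligand array 2, -0.053 without vehicle array 2 and -0.20 without vehicle array 3. SDHAF2, which attaches the flavin to SDHA, had 370, 309 and 409 against 113, 180 and 113, a log2 difference of -1.35 ± 0.36 (SE). BCS1L, which inserts the iron-sulphur protein into complex III, had -0.52 ± 0.23 (SE), also without overlap of the groups. None of these passed, and the lowest limma adjusted p among the 4 was 0.773.

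For complex IV, 9 of 26 assembly factors were higher and 17 lower, with a median of -0.15, or -0.028 without ligand array 1 and -0.054 without ligand array 3. The 2 with the smallest p went the other way, COA4 at 0.88 ± 0.40 and COA6, a copper delivery factor, at 0.81 ± 0.43 (SE). The 4 tested ATP synthase factors were even, 2 higher and 2 lower with a median of -0.019. That median was -0.10 when ligand array 1 was dropped and 0.21 when ligand array 3 was. The list held ATP5IF1, an inhibitor of the enzyme and no assembly factor, which was higher at 0.15 ± 0.22 (SE). ATPAF1, a chaperone of the F1 head, had -0.15 ± 0.21 (SE), and TMEM242 had -0.21 ± 0.25 (SE).

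The mitochondrial ribosome makes the subunits encoded in mitochondrial DNA. The symbols with its prefixes gave 76 tested genes, 1 of which, MRPL20-AS1, is an antisense transcript. Of the other 75, which name ribosomal proteins, 22 were higher and 53 lower, with a median of -0.12, or 0.0057 without ligand array 3. An unadjusted p under 0.05 was reached by 1 that was higher and 2 that were lower, 4.0% against 6.12% of all tested genes, and 0 passed. MRPL24 had 10398, 8576 and 4051 with vehicle and 3327, 3454 and 3578 with the ligand, a log2 difference of -1.04 ± 0.31 (SE). Its groups did not overlap, though vehicle array 3 lay near the ligand values. MRPL36 had 11.7, 57.6 and 83.6 against 212, 221 and 322, and it passed the brightness threshold only through its ligand values. Of the 13 subunits encoded in mitochondrial DNA, 3 were found under the symbols searched, ND2, ND4 and ND6. Whether the array reads the others under different names was not examined. Only ND4 was tested, with a log2 difference of 0.14 ± 0.69 (SE). ND4 was dim, with mean signals of 113 with vehicle and 156 with the ligand, on either side of the brightness threshold.

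Regulators of mitochondrial genes were lower in 13 of 19 cases and higher in 6, with a median of -0.19, and 0 passed. ESRRG, an oestrogen-related receptor that activates genes of energy metabolism, had signals of 258, 211 and 160 with vehicle and 343, 401 and 367 with the ligand, a log2 difference of 0.80 ± 0.32 (SE). PPARA, the receptor that switches on fatty acid oxidation, had 4849, 3371 and 4620 against 3115, 2548 and 3234, a log2 difference of -0.52 ± 0.21 (SE). Neither pair of groups overlapped, and both had limma adjusted p of at least 0.873. The ESRRG difference fell to 0.33 in an alternative with all arrays kept.

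In the citric acid cycle, which supplies the electrons, 3 of 12 tested enzymes were higher and 9 lower, with a median of -0.098, which turned to 0.12 without ligand array 3 and was -0.32 without ligand array 2. IDH3A and OGDH, which catalyse its oxidative decarboxylations, had log2 differences of -0.50 ± 0.25 and -0.40 ± 0.24 (SE), each with all ligand values below all vehicle values. Enzymes that feed ubiquinone by other routes were 3 higher and 5 lower, with a median of -0.094, which was 0.17 without ligand array 3 and 0.062 without vehicle array 1. Among them SQOR, which oxidises sulphide, had -0.31 ± 0.25 and CHDH, which oxidises choline, 0.21 ± 0.21 (SE). In ubiquinone synthesis 7 of 13 genes were higher and 6 lower, with a median of 0.0040, and COQ9 and COQ10A had -0.41 ± 0.20 and 0.32 ± 0.26 (SE).

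The list of carriers and pores for ADP, ATP and phosphate also held the transhydrogenase NNT and the uncoupling protein UCP2. It had 3 genes higher, NNT and UCP2 among them, and 5 lower. Its median was -0.047, or -0.20 without vehicle array 2 and 0.024 without ligand array 3. VDAC2, an outer membrane pore, had -0.37 ± 0.18 (SE), and SLC25A4, an ADP and ATP carrier, -0.20 ± 0.17 (SE). Of 5 antioxidant enzymes of mitochondria 2 were higher and 3 lower, with a median of -0.18, and -0.039 without vehicle array 3 or -0.046 without ligand array 1. PRDX3, a peroxidase, had -0.35 ± 0.23, and TXNRD2, which reduces its electron donor, 0.30 ± 0.22 (SE). In all of these lists 0 genes passed in limma, and whether any list differs from the subunits was not tested.

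**Figure D5:**
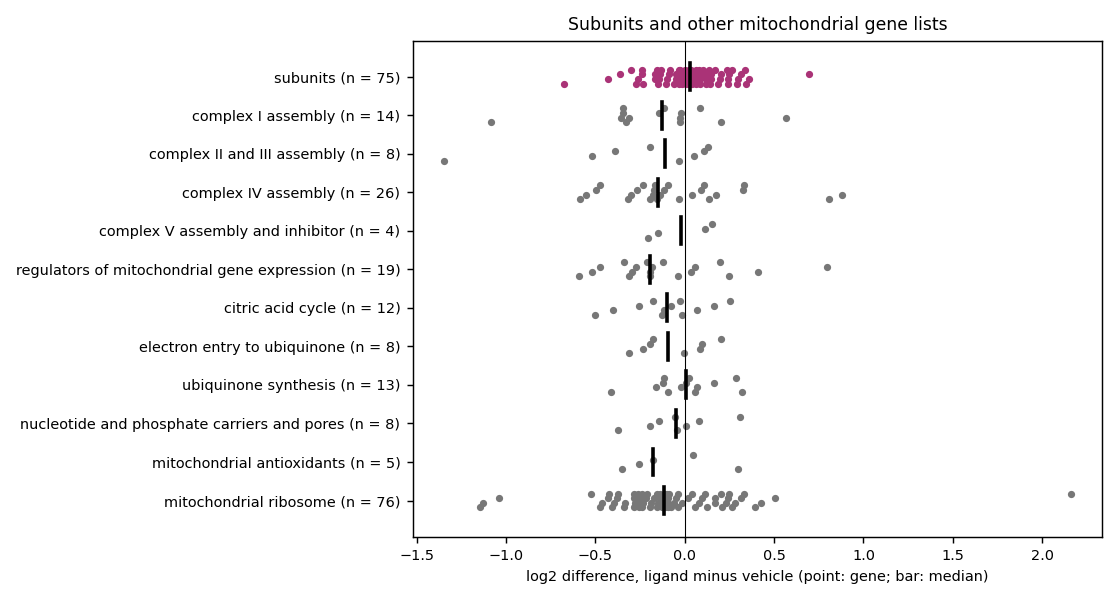
Log2 difference between ligand and vehicle for each tested gene (points) with the list's median (bars), for the 75 subunits (top, in colour) and 11 other mitochondrial gene lists. The subunits centre on 0.027 with few values beyond -0.5 or 0.5, and the mitochondrial ribosome, drawn with all 76 symbols, centres on -0.12.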

How the data were processed

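Liver RNA of 6 macaques was isolated with a column kit and labelled by Affymetrix's standard method, per the labels' protocols. The authors deposited 1 linear intensity per probe set and array, which the submitters' processing notes name as MAS5. Its version, target level and detection calls are not given in the sources used here. Values lay between 0.165 and 237196. Human probes read macaque transcripts, so sequence differences can lower a signal. The symbols came from the platform annotation, and all 78 subunit symbols also occur in the macaque RefSeq annotation, used for names only. Probe sets with several symbols were not used, which left out NDUFC2, NDUFS5, NDUFS8 and UQCRH. It also left out the symbols ATP5MF-PTCD1, NDUFC2-KCTD14, NDUFA6-DT and UQCRHL. Other genes not named in this annotation were not analysed here, among them 3 of 14 core subunits in the naming rule. No sequence is shown, since no sequence file was used here.

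Signals were transformed to log2(signal + 16) with the deposited scaling kept, which shrinks the differences of dim probe sets. After removal of 62 control probe sets, the 27304 with a mean of at least the overall median of 129 were tested two-sided with limma 3.58.1 (lmFit, eBayes with an intensity trend; R 4.3.3), 3 arrays against 3, without covariates. Benjamini-Hochberg adjustment covered all tested probe sets at a threshold of 0.05. The prior gave 6.23 degrees of freedom. Intervals are limma's, at 95%. The fit was tested on simulated data. Figures used Python 3.11.15 and matplotlib 3.10.9. The number of animals limits the precision.

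Members, lists and tests were chosen with earlier results of these data known. Named subunits were those with the smallest p in each complex (4, or 2 for complex II), 14 core subunits, 15 tissue isoform genes, the 3 highest and 3 lowest, and the 2 with the smallest p in each further mitochondrial list. Cell type lists are given as counts and sums, apart from values of VWF, TF, FGB and the erythroid and muscle markers. The cholangiocyte, T and NK cell and erythroid lists are not given in full. Same-numbered arrays of the 2 groups did not deviate together (r = 0.040, -0.031 and 0.070 over tested probe sets), so the numbers were not taken as pairs. Alternatives were other pseudocounts (1 and 64), quantile or median scaling, testing all probe sets or those above the 75th percentile, a plain or a robust eBayes, weights on arrays, blocking by replicate number, a threshold of 0.10, averaging all probe sets per gene, and leaving out each array.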

Additional observations from a re-analysis of the deposited data

How the results depend on the processing

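With 3 animals a group and MAS5 signals close to background for dim genes, only the bright subunits are tightly bounded. None of the subunits was called under any alternative, including the replicate number as a block, where 0 subunits and 0 probe sets passed. Each replicate number occurs once in each group, so the block cannot move the log2 differences or their median of 0.027. Probe sets called in all were 0 to 1 when single arrays were left out, with 1 without vehicle array 2 and 1 without ligand array 2. The number of subunits with an unadjusted p under 0.05 was 1 to 3. The subunit median ran from 0.0055 to 0.047 over the other settings, the first with median centring, and from -0.079 to 0.12 when single arrays were left out. The counts without MRPL20-AS1 and the endothelial sums without VWF were added after seeing the data. Counting the symbols that name no subunit, an alternative also added after seeing the data, gave a median of 0.026 and 0 called of 79. Of 626 recomputed values of named subunits 586 kept their sign and 40 did not, 31 of these with an array left out. Part of the 626 could not turn, since the filters, the plain or robust eBayes and the block leave a gene's log2 difference unchanged. Of the 37 tested named subunits 20 kept their sign throughout.

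Signs turned for COX6B2 with a pseudocount of 1 (-0.018), quantile normalization (-0.036) and median centring (-0.015), and for ATP5MC3 with the latter 2 (-0.042 and -0.010). With array weights COX6A1 was 0.011 and COX8A -0.034, and with the mean of probe sets NDUFS1 was -0.27 and COX5A -0.093. The cause was not tested, except that the last alternative adds dimmer probe sets. With single arrays left out, the ranges that crossed 0 were -0.25 to 0.31 for ATP5F1A, -0.15 to 0.12 for ATP5F1B, -0.16 to 0.11 for ATP5F1C, -0.13 to 0.13 for ATP5MC3, -0.056 to 0.26 for COX4I2, -0.12 to 0.17 for COX5A, -0.18 to 0.25 for COX6A1, -0.010 to 0.57 for COX6A2, -0.33 to 0.65 for COX6B2, -0.11 to 0.20 for COX7A2, -0.17 to 0.31 for COX7B, -0.18 to 0.27 for COX8A, -0.018 to 0.82 for ND4, -0.069 to 0.36 for NDUFV1, -0.17 to 0.19 for NDUFV2, -0.056 to 0.26 for UQCRC1 and -0.33 to 0.19 for UQCRC2.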

Other observations

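The prefixes that select the subunits also matched transcripts that are no subunit. NDUFV1-DT, a divergent transcript beside NDUFV1, had signals of 500, 356 and 549 with vehicle and 630, 519 and 383 with the ligand. NDUFV2-AS1 and NDUFB2-AS1, antisense transcripts, had log2 differences of -0.13 ± 0.49 and -0.50 ± 0.78 (SE). COX6A1P1, a pseudogene, fell below the brightness threshold, at 24.4, 25.3 and 12.9 against 108, 35.9 and 169.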
